A study of Saccharomyces cerevisiae with 18 samples.

Results

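The regions described are the 275 peaks, of 2188 in the deposited list, at which wild-type (WT) Ste12 left at least 3 insertions in each of its 2 replicates, so they were chosen by the WT insertion counts. Ste12 is the transcription factor of the yeast pheromone and filamentation pathways. In haploid cells the pheromone receptor, its G protein and a MAP kinase cascade ending in Fus3 and Kss1 release Ste12 from its inhibitors, and Ste12 then switches on genes for signalling, cell adhesion, cell fusion and nuclear fusion. Together with Tec1 it also acts on genes of filamentous growth and agar invasion.

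Binding was read out with calling cards, a method where each Ste12 protein is fused to the PiggyBac transposase so that a transposon carrying a unique molecular identifier (UMI) inserts close to where the protein is bound. The fusions to WT Ste12 and to the single amino acid variants A160P, K146D, K152L, K150A, K150I and S158H were expressed from the GAL1 promoter, which galactose turns on, in BY4705, a MATα laboratory strain that kept its own STE12 gene, with 2 replicates for each of the 7 proteins. Expression came from a separate set of strains, BY4705 with STE12 deleted and with WT or a variant STE12 on the low-copy plasmid pRS415 under its own promoter, grown exponentially, with 5 RNA-seq replicates for each genotype. The study classed A160P, K146D and K152L as reduced in mating and K150A, K150I and S158H as mating like WT, and these classes are called mating-defective and mating-competent here. All but A160P and S158H of the variants were classed as hyper-invasive, A160P as invading like WT and S158H as defective in invasion.

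The 14 binding libraries held 5904 to 12778 UMIs in peaks. The rule that chose the sites used the WT UMIs, so the WT values, and every variant set beside WT at these sites, are descriptions without a test. Tests were kept to variants against each other and to RNA-seq. The WT libraries differed in depth, with 12778 UMIs in replicate 1 and 6165 in replicate 2, and the rule was limited by the shallower one: 559 peaks had 3 UMIs in replicate 1 and 282 in replicate 2. At the edge of the rule, 30 sites had a lower count of exactly 3 UMIs, and 19 peaks just outside it had a lower count of 2. At least 1 variant also had a site at 18 of those 30 and at 9 of those 19.

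The site with the most WT UMIs lay between KAR4, which encodes a transcription factor for nuclear fusion genes, and PEX34, which encodes a peroxisomal membrane protein (R64, chromosome III, from 27806 to 27976). It held 3 and 21 UMIs in the replicates of A160P, 47 and 50 in K146D, 42 and 43 in K152L, 41 and 33 in K150A, 233 and 275 in K150I and 2 and 9 in S158H, against 347 and 237 in WT. It was a site of every variant except S158H, and of the variants K150I came nearest to the WT counts.

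The other 9 of the 10 strongest sites were beside genes with no listed role in mating or filamentation. They lay inside HDA3, which encodes a histone deacetylase subunit, beside PUN1 and VPS36, at 2 places between the divergent genes SCW10 and FKS3, beside CBS1 and IDP1, inside RRT6 close to RPL9A and TIP20, inside YJL052C-A close to the glycolytic gene TDH1, 5′ of RGI1, and downstream of RPS25B. At 5 of these 9, 11 or 12 of the 12 variant libraries had no UMI. The CBS1 and IDP1 site (chromosome IV, from 333931 to 334033) had 1 UMI in all 12 variant libraries together, against 196 and 91 in WT. The TDH1 site (X, 337833 to 337936) and the RGI1 site (V, 291139 to 291239) had 0 UMIs in the 12 variant libraries, against 191 and 82 and 144 and 102 in WT. Counting error alone would let a library with 0 UMIs have had up to 3.

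Sites lay mostly in front of genes. Of the 275, 42.5% were between tandem genes, 25.8% between divergent genes, 7.27% between convergent genes and 24.0% inside a coding span, against 29.1%, 19.5%, 8.99% and 38.3% of the other 1913 peaks. The centre was within 500 bp 5′ of the nearest coding start for 53.1% of sites and 35.9% of other peaks. No site was on the mitochondrial genome, which held 75 of the peaks. The sites were spread over all 16 nuclear chromosomes, from 6 on chromosomes I and VI to 28 on IV and VII. A gene's window was set at 1000 bp upstream and 200 bp downstream of its coding start. Such windows were overlapped by 205 sites (74.5%), against 61.0% of other peaks, and belonged to 278 genes.

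Few of the sites were bound by any one variant (the plot of retained shares). A site was counted as retained when both replicates of a variant had at least 3 UMIs in the same peak. K150A retained 59 sites (21.5%), K146D 52 (18.9%), K150I 48 (17.5%), S158H 45 (16.4%), K152L 29 (10.5%) and A160P 14 (5.09%). Over all 2188 peaks the share passing the same minimum was 10.5% for K150A, 15.9% for K146D, 6.95% for K150I, 11.1% for S158H, 5.16% for K152L and 5.62% for A160P. Retention was thus about 2 times the background or more in K150A, K150I and K152L, somewhat above it in K146D and S158H, and at it in A160P. In K146D 103 of the sites had 0 UMIs in both replicates, and in the other variants 157 to 196 did.

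**Figure D1:**
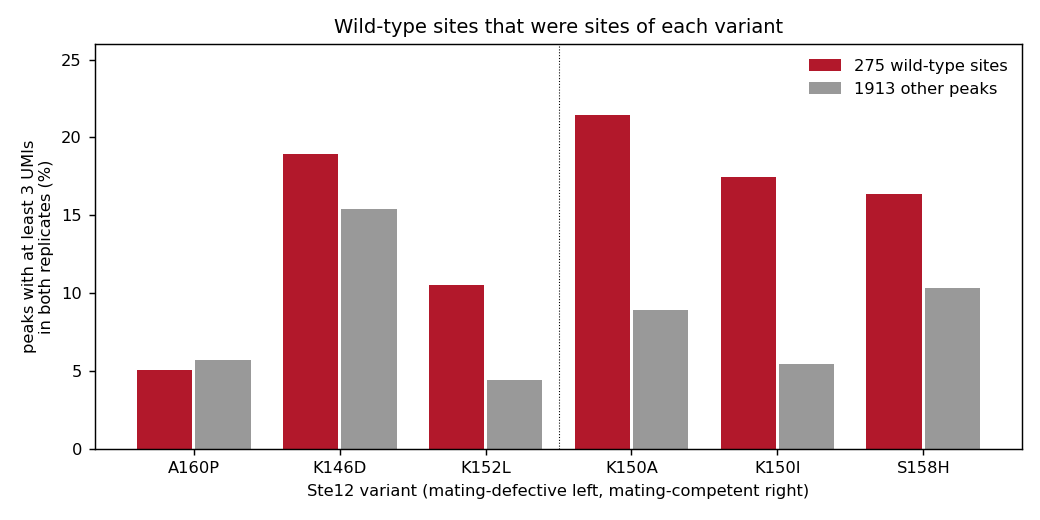
Share of peaks, in percent, that reached 3 UMIs in each replicate of a variant, for the 275 wild-type sites (red) and the 1913 other peaks (grey). The red bars run from 5.09% in A160P to 21.5% in K150A, and in A160P the bar for wild-type sites is no higher than that for other peaks.

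The counts moved with the replicate in A160P and K146D. Without A160P replicate 1 the A160P count was 34, and without K146D replicate 1 the K146D count was 83. A site of the variant within 500 bp, rather than in the same peak, was found for 72 sites in K150A, 66 in K146D, 56 in K150I, 56 in S158H, 35 in K152L and 20 in A160P. WT replicates differed less from each other than from the variants. Here peaks were picked in 1 WT replicate at its full depth, and every library they were looked up in was thinned to 5904 UMIs. Of the 282 peaks with 3 UMIs in WT replicate 2, 3.90% to 24.8% had 3 in the single variant libraries, against 88.7% in WT replicate 1. Of the 559 picked in the deeper WT replicate 1, 7.69% to 25.2% had 3 UMIs in single variant libraries, against 48.8% in WT replicate 2.

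Of the 275 sites, 160 were retained by no variant, 50 by 1, 32 by 2, 15 by 3, 8 by 4, 4 by 5 and 6 by all 6. All 12 variant libraries were at 0 for 52 sites, and 14 sites had at least 1 UMI in every library. The number of retained sites did not fall steadily with the WT level. The sites were sorted by their share of WT UMIs into 5 equal bins of 55. At least 1 variant retained 31 in the strongest bin, then 26, 18 and 11, and 29 in the weakest. The peak list is shared by all the proteins, so a peak weak in WT can be listed through a variant's UMIs. How far this raised the count in the weakest bin was not tested. Where a site was retained, its share of the library was often as high as in WT: the median ratio of the variant's share to the WT share was 0.349 over the 14 sites of A160P, 0.952 in K146D, 1.91 in K152L, 0.819 in K150A, 1.05 in K150I and 0.980 in S158H. Because a retained site must pass 3 UMIs in the variant, weak retained sites have high ratios by construction.

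The 6 sites found in all genotypes were beside genes of mating, cell wall or filamentation (the heat map of UMIs at listed sites). The CHS7 and RPL42B site (VIII, 383163 to 383356), in front of the gene for the chaperone that exports chitin synthase from the endoplasmic reticulum, held 3 and 9 UMIs in A160P, 31 and 39 in K146D, 256 and 208 in K152L, 14 and 11 in K150A, 408 and 550 in K150I and 23 and 15 in S158H, against 130 and 77 in WT. K152L and K150I stood above WT there and the other 4 variants below it. The site 360 bp 5′ of STE12 itself (VIII, 273750 to 273878) was more even, with 5 to 49 UMIs in the variant libraries, against 116 and 41 in WT. FUS2, which encodes a cytoplasmic protein of cell fusion, had 3 to 46 UMIs in the variant libraries at its site (XIII, 736491 to 736980), against 61 and 33 in WT.

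The remaining 3 of these were weaker in WT than in some variants. The site between SAG1, the gene of the α-agglutinin by which MATα cells adhere to their partners, and APL1 (X, 445330 to 445752) held 3 and 10 UMIs in A160P, 3 and 5 in K146D, 51 and 60 in K152L, 242 and 311 in K150A, 25 and 31 in K150I and 412 and 475 in S158H, against 50 and 19 in WT. The site of PRY2 (XI, 463786 to 463996) held 5 and 16 UMIs in A160P, 35 and 50 in K146D, 388 and 331 in K152L, 85 and 92 in K150A, 132 and 206 in K150I and 19 and 19 in S158H, against 53 and 17 in WT. The site of MSB2, the mucin at the head of the filamentation pathway (VII, 516007 to 516110), held 3 and 11 UMIs in A160P, 26 and 41 in K146D, 41 and 45 in K152L, 18 and 19 in K150A, 35 and 28 in K150I and 4 and 4 in S158H, against 7 and 3 in WT. Retained by 5 variants were the KAR4 site, the site of AGA1 (XIV, 703156 to 703621), the site of the cell wall sensor gene WSC2 and of POP3 (XIV, 107018 to 107121), and a site on chromosome X from 724456 to 724561 that was in no gene's window.

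**Figure D2:**
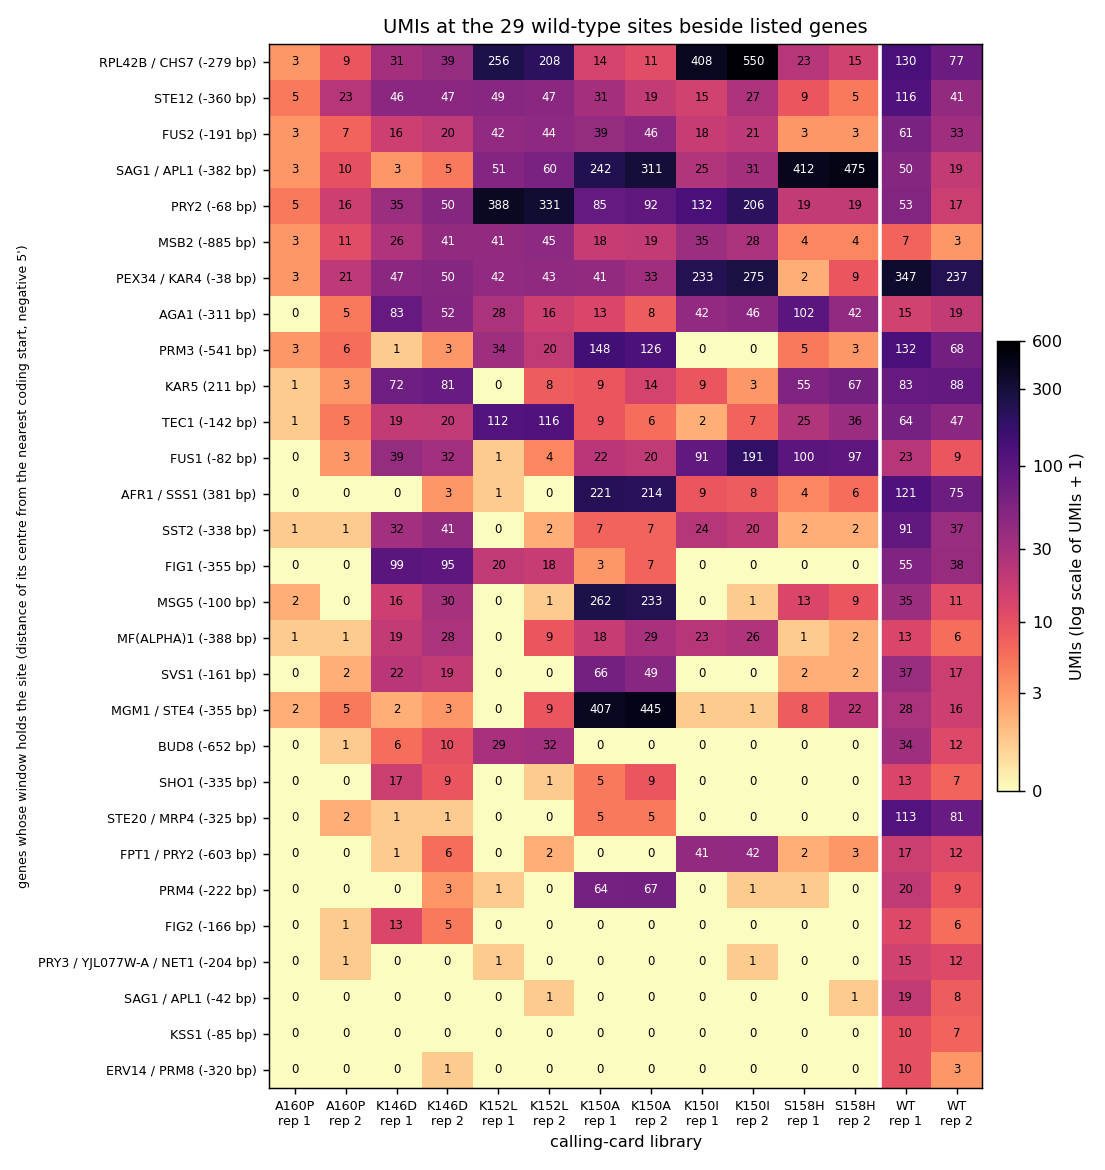
UMIs in each of the 14 calling-card libraries (columns, variants on the left and wild type on the right) at the 29 wild-type sites in the window of a pheromone, mating or filamentation gene (rows, sorted by the number of variants that retained them). Numbers are UMIs and the colour is on a log scale. The top 6 rows were sites of all variants, and the bottom 4 of none.

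Known Ste12 genes were then taken as 3 lists: pheromone signalling, mating with adhesion and fusion, and filamentation. A site lay in the window of 8 of 20 pheromone signalling genes, 13 of 26 mating genes and 8 of 19 filamentation genes, and of 1 of 9 genes of osmotic stress. The 29 sites beside genes of the first 3 lists were retained more often than the rest, with 25 of 29 (86.2%) retained by at least 1 variant, against 90 of the other 246 (36.6%). The median number of variants that retained a site was 3 for the 29 and 0 for the 246. Both groups were chosen with earlier results of these data known, and the difference was not tested.

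By variant, A160P retained 8 of the 29, K146D 19, K152L 12, K150A 22, K150I 14 and S158H 14. The share of a library's UMIs at the 29 sites was 0.518% and 1.89% in A160P, 7.69% and 7.71% in K146D, 12.9% and 12.5% in K152L, 19.5% and 20.3% in K150A, 16.7% and 15.7% in K150I, and 13.4% and 13.6% in S158H, against 13.5% and 16.5% in WT. The 6 libraries of the mating-competent variants lay at 13.4% to 20.3%, a range that holds both WT values, and those of A160P lay lowest. The other 246 sites took 8.89% to 20.1% of the UMIs in the variant libraries, against 68.3% and 80.8% in WT (the plot of UMI shares). There every variant library lay below both WT libraries. The sites were chosen by their WT UMIs, so high WT shares follow from the rule, and no loss in the variants is read from this gap.

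**Figure D3:**
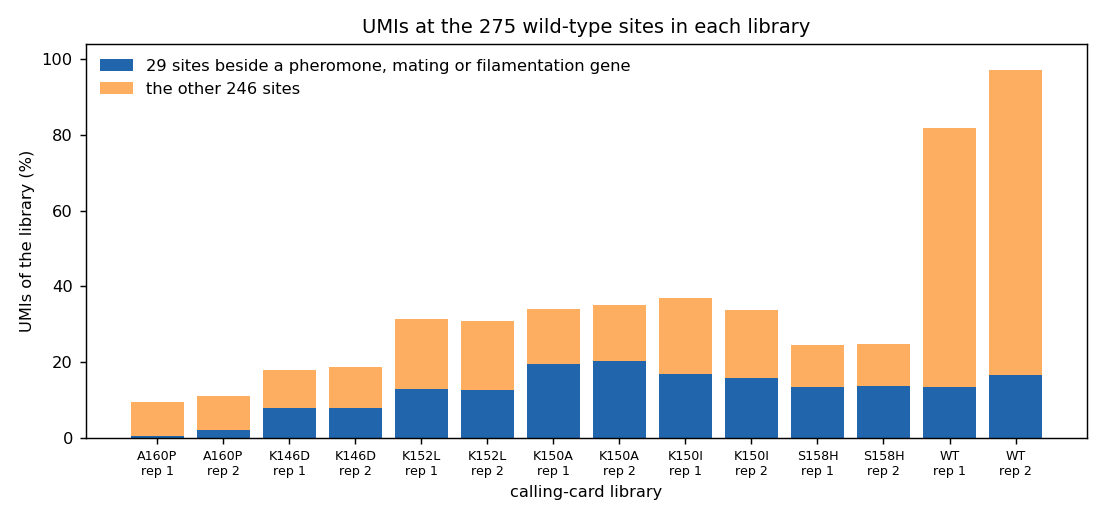
Share of each library's UMIs, in percent, at the 29 wild-type sites beside listed genes (blue) and at the other 246 (orange). The blue parts of K150A, K150I and S158H are close to those of wild type, and the orange parts of all 12 variant libraries lie at 8.89% to 20.1%, against 68.3% and 80.8% in wild type. Wild-type UMIs chose the sites, so high wild-type shares follow from the rule.

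Over all 275 sites the mating-defective variants put 19.9% ± 10.5 of their UMIs at WT sites and the mating-competent variants 31.4% ± 5.92 (SD, n = 3 genotypes each, each the mean of 2 replicates). The values were 10.2% in A160P, 18.3% in K146D and 31.1% in K152L, against 34.4% in K150A, 35.3% in K150I and 24.6% in S158H. The groups overlapped, since K152L lay above S158H, and the difference of −11.6 percentage points did not pass a two-sided exact permutation test (p = 0.2, where 3 genotypes against 3 cannot go below 0.1). At the 29 listed sites the values were 7.20% ± 5.76 in the mating-defective and 16.5% ± 3.23 in the mating-competent variants (n = 3 each), which did not overlap. The lists were chosen with earlier results of these data known, and this comparison was added after seeing the data. It is therefore given as a description, with no p-value. A pair of peaks took 50.4% and 47.0% of all UMIs in the A160P replicates. Without the 2 largest peaks of each library the A160P share at WT sites was 19.9%, and the difference between the classes was −5.78 percentage points (exact permutation p = 0.2).

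Among signalling genes, the site of STE4, which encodes the β subunit of the G protein and shares its promoter with MGM1 (XV, 742446 to 742664), held 2 and 5 UMIs in A160P, 2 and 3 in K146D, 0 and 9 in K152L, 407 and 445 in K150A, 1 and 1 in K150I and 8 and 22 in S158H, against 28 and 16 in WT. The site of STE20, the kinase below the G protein (VIII, 98208 to 98316), had 0 to 5 UMIs in each variant library, against 113 and 81 in WT. The site of KSS1, a MAP kinase of both pathways (VII, 575263 to 575363), had 0 UMIs in all 12 variant libraries, against 10 and 7 in WT.

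Negative regulators differed among variants as well. The site of SST2, which encodes the regulator that turns off the G protein (XII, 1041653 to 1041756), held 1 and 1 UMIs in A160P, 32 and 41 in K146D, 0 and 2 in K152L, 7 and 7 in K150A, 24 and 20 in K150I and 2 and 2 in S158H, against 91 and 37 in WT. The whole SST2 window held 257 and 231 UMIs in K150A, most of them outside this peak, against 94 and 37 in WT. The site of MSG5, which encodes a phosphatase of Fus3 (XIV, 529753 to 529931), held 262 and 233 UMIs in K150A and 0 to 30 in the other variant libraries, against 35 and 11 in WT. AFR1, a gene of adaptation to pheromone, had at its site (IV, 616602 to 616977) 0 to 3 UMIs in each mating-defective library, against 221 and 214 in K150A, 9 and 8 in K150I and 4 and 6 in S158H, with 121 and 75 in WT. Of these genes AFR1 had a retained site in the mating-competent variants alone.

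Among genes of adhesion and fusion, the site 82 bp 5′ of FUS1, whose product acts at the membrane in cell fusion (III, 71628 to 71814), held 0 and 3 UMIs in A160P, 39 and 32 in K146D and 1 and 4 in K152L, against 22 and 20 in K150A, 91 and 191 in K150I and 100 and 97 in S158H, with 23 and 9 in WT. K146D was the mating-defective variant that retained it. The site of FIG1, a membrane protein of mating cells (II, 316488 to 316739), held 0 UMIs in both libraries of A160P, 99 and 95 in K146D, 20 and 18 in K152L, 3 and 7 in K150A and 0 in the libraries of K150I and S158H, against 55 and 38 in WT. At AGA1, the gene of the anchor subunit of a-agglutinin, all libraries but A160P replicate 1 had UMIs, with 42 to 102 in those of K146D, K150I and S158H, against 15 and 19 in WT. The site of TEC1, the partner of Ste12 in filamentation (II, 408830 to 409225), held 112 and 116 UMIs in K152L and 1 to 36 in the libraries of the other variants, against 64 and 47 in WT. The site of KAR5, a gene of nuclear fusion (XIII, 399820 to 400007), held 72 and 81 UMIs in K146D and 55 and 67 in S158H and 0 to 14 in the other variant libraries, against 83 and 88 in WT.

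Other listed sites were high in 1 or a few variants. The PRM3 site (XVI, 183479 to 183716) held 34 and 20 UMIs in K152L, 148 and 126 in K150A and 0 to 6 in the other variant libraries, against 132 and 68 in WT. PRM4 had 64 and 67 UMIs in K150A and 0 to 3 elsewhere among the variants, against 20 and 9 in WT, and SVS1, a cell wall gene, 22 and 19 in K146D, 66 and 49 in K150A and 0 to 2 in the others, against 37 and 17 in WT. The site of MF(ALPHA)1, the main gene of the α-factor pheromone, was retained by K146D, K150A and K150I, with 18 to 29 UMIs, against 13 and 6 in WT. SHO1, an osmosensor gene of the filamentation pathway, had its site in K146D and K150A (5 to 17 UMIs), against 13 and 7 in WT, and FIG2 in K146D (13 and 5), against 12 and 6 in WT. A weaker second site of PRY2 (XI, 463305 to 463408) held 41 and 42 UMIs in K150I and 0 to 6 in the other variant libraries, against 17 and 12 in WT. The sites of PRM8 and PRY3 had 0 or 1 UMI in each variant library, against 10 and 3 and 15 and 12 in WT.

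Neighbouring WT sites could part, though not all neighbours lay in the window of the same gene. Of 19 pairs of adjacent sites whose centres lay within 1000 bp, 10 had 1 site retained by a variant and the other by none, 5 had both retained and 4 neither. Between SAG1 and APL1, 2 sites with centres 638 bp apart held 1628 and 2 UMIs over the 12 variant libraries, and in WT 50 and 19 UMIs at the first and 19 and 8 at the second. Between SCW10 and FKS3 the pair 465 bp apart held 217 and 1 UMIs over the variant libraries, against 244 and 105 and 135 and 110 in WT.

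Variants were then compared with each other at single peaks, which the rule did not use. limma was fitted to log2(UMIs per 1000000 + 100) of the 12 variant libraries over 790 peaks with a mean of at least 1 UMI, of which 111 were WT sites. The other 164 sites had too few UMIs in the variants for this test. This minimum was taken over the variant libraries themselves, so a peak could pass it through 1 variant. The p-values of limma, and of edgeR below, measure the spread between replicate libraries of a variant. They do not measure the spread between variants of a mating class. Of the 111, 73 (65.8%) differed between mating-defective and mating-competent variants at an adjusted p below 0.05, where 74.1% of all 790 peaks did. Of the 111, 46 (41.4%) were lower in the mating-defective variants and 27 (24.3%) higher, where 38.4% of all peaks were lower and 35.7% higher. The median log2 difference was −0.74 over the 111 sites and −0.26 over all 790 peaks. edgeR on the recovered UMIs called fewer, 27 sites (24.3%), where it called 16.3% of all peaks, so whether WT sites were called more or less often than other peaks depended on the model. Of the 27, 18 were lower (9.62% of all peaks were) and 9 higher (6.71%), and 25 had the same direction as a limma call.

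The sites with the lowest differences were those of AFR1 and SSS1 (log2 difference −4.52 ± 0.42 (SE), limma adjusted p = 3e-05), a site on chromosome V from 566776 to 566879 (−4.34 ± 0.24), the site of CSS3 (−4.13 ± 0.31), a site inside SFL1, a repressor of flocculation genes (−3.97 ± 0.60), and FUS1 (−3.64 ± 0.54, adjusted p = 0.000463). The contrast averages 3 variants on each side, and several of these rested on 1 of them. The CSS3 site (XV, 17883 to 18103) had 226 and 258 UMIs in S158H and 0 to 20 in each other variant library, and the SFL1 site (XV, 587726 to 587973) 336 and 422 in K150I and 0 to 5 in the others. FUS1 was high in both K150I and S158H.

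The highest differences were at HOS2 and IME4 (4.96 ± 0.50), at SOH1, CWC23 and SCS3 (4.78 ± 0.32), at CLA4 (4.00 ± 0.35), at BUD8 (3.25 ± 0.32), and at a site on chromosome VIII from 146633 to 146740 (3.20 ± 0.50). HOS2 encodes a histone deacetylase, CLA4 a kinase of the same family as STE20 and BUD8 a landmark of the distal bud site. The HOS2 site (VII, 141708 to 141812) was a site of A160P above all, with 475 and 451 UMIs, 0 and 4 in K146D, 10 and 16 in K152L and 0 to 2 in the mating-competent libraries. The CLA4 site (XIV, 68391 to 68494) was retained by K146D and K152L, with 54 and 32 UMIs and 46 and 44 UMIs, and held 2 and 9 in A160P and 0 to 2 in each mating-competent library. edgeR called all 10 of these sites.

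Set against the mean of the other 5 variants, A160P differed at 70 of the 111 sites (64.8% of all peaks did), K146D at 60 (58.7%), K152L at 71 (63.3%), K150A at 71 (61.6%), K150I at 71 (60.9%) and S158H at 71 (62.3%), by limma at an adjusted p below 0.05. The shares called by limma were near those of all peaks, as with 63.1% of the 111 in A160P and 54.1% in K146D. A160P was lower at 63 sites (56.8%, and 49.6% of all peaks) and higher at 7. K150A was higher at 37 (33.3%, and 22.2% of all peaks) and K150I at 35 (31.5%, and 17.3%). By edgeR the counts were 16 sites for A160P (14.4%, where 17.2% of all peaks were called), 49 for K146D (44.1%, and 36.6%), 33 for K152L (29.7%, and 17.1%), 42 for K150A (37.8%, and 24.1%), 49 for K150I (44.1%, and 20.3%) and 42 for S158H (37.8%, and 30.0%). With edgeR the share at WT sites was thus above that of all peaks in every variant except A160P. For A160P edgeR called 5 sites higher and 11 lower, while over all peaks it called 120 higher and 16 lower and limma 120 higher and 392 lower. Without 1 of their own replicates, the counts of K146D, K150A and S158H fell to 37, 45 and 44 at the lowest.

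Except for that of TGL5 and WHI5, the sites given here for the highest differences each had most of their variant UMIs in 1 variant. The site of IES1 and YFL012W (38 and 40 UMIs in K146D) and that inside AYR1 had 0 or 1 UMI in every other variant library. These sites thus passed the minimum for the test only through the variant where they were highest. All sites here were picked by the difference given, so the values describe them and are no further support. STE4 (log2 difference 6.39 ± 0.84, limma adjusted p = 0.000378) and PHO89, a phosphate transporter gene (6.43 ± 0.58), were highest in K150A. The chromosome V site from 566776 (7.67 ± 0.32) was highest in K150I, FIG1 (5.47 ± 0.29) and the site of IES1 and YFL012W (5.48 ± 0.40) in K146D, SOH1 (6.88 ± 0.43) and SFG1, a gene of superficial pseudohyphal growth (5.88 ± 0.51), in K152L, and CSS3 (6.88 ± 0.42) and a site inside AYR1 (5.79 ± 0.38) in S158H. In A160P they were HOS2 (9.07 ± 0.66) and the site of TGL5 and WHI5 (3.47 ± 0.34), which also had 64 and 78 UMIs in K150I. At 4 of them the site was weak in WT: the SOH1 site held 220 and 201 UMIs in K152L, against 10 and 3 in WT, the AYR1 site 45 and 30 in S158H, against 3 and 3, the chromosome V site 240 and 390 in K150I, against 3 and 14, and the SFG1 site 199 and 168 in K152L, against 34 and 4.

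The lowest differences were at the site of RGM1 and MIN3 (−4.13 ± 0.61) and FUS1 (−3.90 ± 0.73) in A160P, the stronger site of SAG1 and APL1 (−4.19 ± 0.37) and CSS3 (−3.87 ± 0.42) in K146D, and FUS1 (−3.48 ± 0.73) and the site of YIL055C, YIL054W and GPP1 (−3.38 ± 0.50) in K152L. They were at SFG1 (−3.63 ± 0.51) and SIM1 (−3.44 ± 0.60) in K150A, at UBC4 (−4.64 ± 0.61) and PRM3 (−4.23 ± 0.39) in K150I, and at CLA4 (−3.76 ± 0.46) and HOS2 (−3.33 ± 0.66) in S158H, with limma adjusted p-values from 2.86e-05 to 0.00469. edgeR called all of these except HOS2 in S158H. K150I had the same difference at HOS2 (−3.33), and both had 0 UMIs there. The mean they were set against holds the 475 and 451 UMIs of A160P, so S158H did not stand apart at HOS2. FUS1 was thus among the lowest in both A160P and K152L. The UBC4 site (II, 407713 to 407927), low in K150I at 2 and 1 UMIs, held 429 and 387 in K152L and 196 and 206 in K150A, with 105 and 44 in WT.

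Expression gave a readout that the rule had not used. Of the 278 genes beside a WT site, 261 had enough UMI counts for the edgeR test of each variant against WT, among 6139 genes in all. The libraries are of whole cultures, so fewer expressing cells and less RNA per cell cannot be told apart, and each library held 1039256 to 5481766 UMIs. In the mating-defective variants the share that changed was higher beside WT sites than over all genes. In A160P 24 of the 261 (9.20%) changed at an adjusted p below 0.05, where 0.928% of all genes did. Of these 22 were lower (0.847% of all genes) and 2 higher (0.0814%). In K146D it was 20 (7.66%), where 0.700% of all genes did, with 19 lower (0.684% of all genes) and 1 higher (0.0163%). In K152L it was 24 (9.20%), where 0.896% did, with 21 lower (0.717%) and 3 higher (0.179%). These 22, 19 and 21 genes were 42.3%, 45.2% and 47.7% of all genes that fell in A160P, K146D and K152L.

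In this fit, which does not use the pairing by replicate number, the mating-competent variants changed fewer of them. In K150A 12 genes (4.60%) changed, where 0.586% of all genes did, with 5 lower (0.309%) and 7 higher (0.277%). In K150I 3 (1.15%), AGA1, FIG1 and KAR4, were higher and 0 lower, where 0.0652% of all genes changed, 0.0489% higher and 0.0163% lower. In S158H 0 of the 261 passed edgeR's test, with 13 at an unadjusted p below 0.05, and DESeq2 also called 0. In the fit with the replicate number as a block the counts beside WT sites were 40 in A160P (background 2.59%), 35 in K146D (1.92%), 38 in K152L (3.62%), 31 in K150A (4.82%), 6 in K150I (0.391%) and 4 in S158H (1.19%), KSS1 and CHS7 lower and PRY3 and STE12 higher. With the block K150A, at 11.9% of the 261, came near K146D (13.4%) and K152L (14.6%). The K152L count was 13 without replicate 1 or replicate 3, the K150A count 5 to 7 without replicates 1, 2 or 3, and the K150I count 7 without replicate 4. All 83 calls had the same direction in replicates 1 and 2 and in replicates 3 to 5, which the labels give as 2 records. The calls were made with these same libraries, so the shared direction is no further support.

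Among genes beside the other peaks, 1247 were tested, and 17 changed in A160P (1.36%), 11 in K146D (0.882%), 14 in K152L (1.12%) and 7 in K150A (0.561%). Changes were found beside retained sites as well as beside those not retained. In A160P 6 of 21 genes beside a retained site changed (28.6%) and 18 of 240 beside a site not retained (7.50%), in K146D 12 of 54 (22.2%) and 8 of 207 (3.86%), in K152L 10 of 37 (27.0%) and 14 of 224 (6.25%), and in K150A 7 of 65 (10.8%) and 5 of 196 (2.55%). Listed genes were more often beside retained sites, and the 2 were not separated.

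The 27 listed genes with a test changed most, but the lists were chosen with earlier results of these data known. In A160P 12 fell and 2 rose (0.847% and 0.0814% of all genes did), with a median log2 fold change of −0.68 (0.003 over all genes). In K146D 11 fell and 1 rose (0.684% and 0.0163% of all genes, median −0.54), and in K152L 10 fell and 2 rose (0.717% and 0.179%, median −0.44). In K150A 0 fell and 6 rose (0.309% and 0.277%, median 0.12), and in K150I 0 fell and 3 rose (0.0163% and 0.0489%, median 0.08). In S158H 0 passed edgeR's test, as over all genes (median −0.16), with 3 at an unadjusted p below 0.05. All these counts come from the fit with genotype alone. In it 30 genes beside a site changed in at least 1 variant, 17 of them listed (the heat map of fold changes). With the replicate block more genes beside a site changed, 40 in A160P and 31 in K150A, where 16 were lower and 15 higher.

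**Figure D4:**
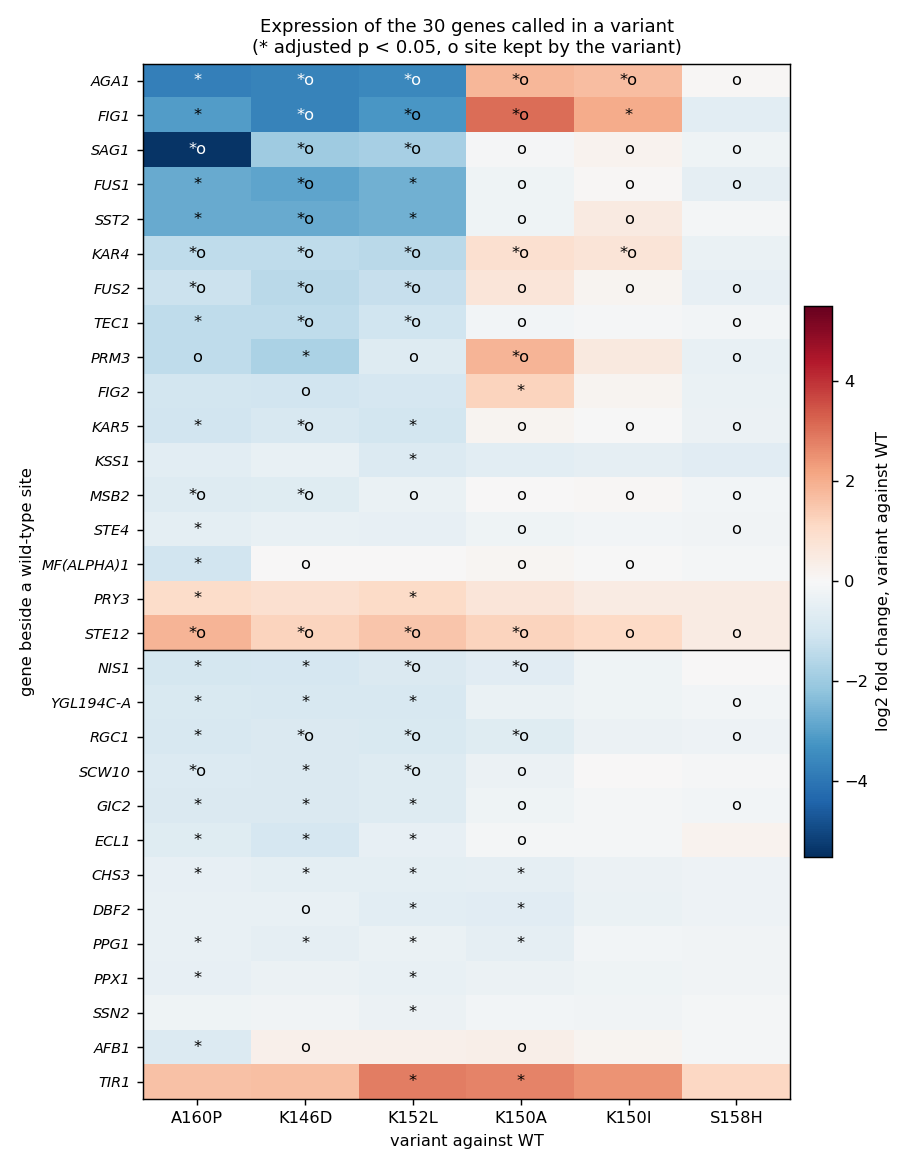
Log2 fold change of expression, variant against wild type, of the 30 genes beside a wild-type site that passed the edgeR test in at least 1 variant (rows, with the 17 listed genes above the line). The fit used genotype alone, without the replicate block. A star marks an adjusted p below 0.05 and a circle a wild-type site that the variant retained. AGA1, FIG1, SAG1, FUS1 and SST2 are the darkest blue in A160P, K146D and K152L, and many starred cells also hold a circle.

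Of the genes beside a site that changed, AGA1, FIG1, FUS1, SST2 and SAG1 had the 5 lowest fold changes in each mating-defective variant (the plot of CPM by genotype). Levels are UMI counts per 1000000 after TMM normalisation (CPM), and a range in brackets is that of the 5 libraries. AGA1 (YNR044W) had a median of 19.8 CPM (18.4 to 34.2) in A160P, 25.6 (17.2 to 29.8) in K146D and 24.1 (19.3 to 36.2) in K152L, and 1070 (860 to 1299) in K150A, 845 (834 to 1224) in K150I and 276 (195 to 457) in S158H, against 322 (240 to 339) in WT. The libraries of the 3 mating-defective variants lay below all those of WT, and the libraries of K150A and K150I above them. Its log2 fold changes were −3.74 ± 0.23 (SE, edgeR adjusted p = 2.55e-13), −3.68 and −3.55 in A160P, K146D and K152L and 1.83 and 1.68 in K150A and K150I.

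FIG1 followed the same pattern at lower levels, with medians of 3.50 CPM in A160P, 1.07 in K146D, 1.95 in K152L, 205 in K150A, 93.4 in K150I and 16.1 in S158H, against 21.2 in WT. FUS1 had 7.00 CPM in A160P, 5.91 in K146D and 5.66 in K152L and 40.9 to 71.3 in the mating-competent variants, against 56.2 in WT. SST2 had 20.0, 16.3 and 19.3 CPM in A160P, K146D and K152L, against 131 in WT. FUS2, KAR5 and TEC1 fell too in all 3, with log2 fold changes of −1.18, −1.05 and −1.38 in A160P.

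KAR4 fell in the 3 mating-defective variants, to 25.4 CPM in A160P, 24.7 in K146D and 21.5 in K152L, and rose in K150A (126) and K150I (103), against 64.6 in WT. PRM3, which encodes a nuclear envelope protein of nuclear fusion, fell in K146D (log2 fold change −1.73) and rose in K150A (1.86). FIG2, the gene of a mating adhesin, rose in K150A (1.23). Among genes of signalling and filamentation, STE4 fell in A160P (−0.55), KSS1 in K152L (−0.77), and MSB2 in A160P and K146D (−0.70 and −0.65). For MSB2 the study reported no difference from WT in its RNA-seq. By RT-PCR it reported more MSB2 in K146D and K152L than in WT, the other direction from the fall in K146D here.

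**Figure D5:**
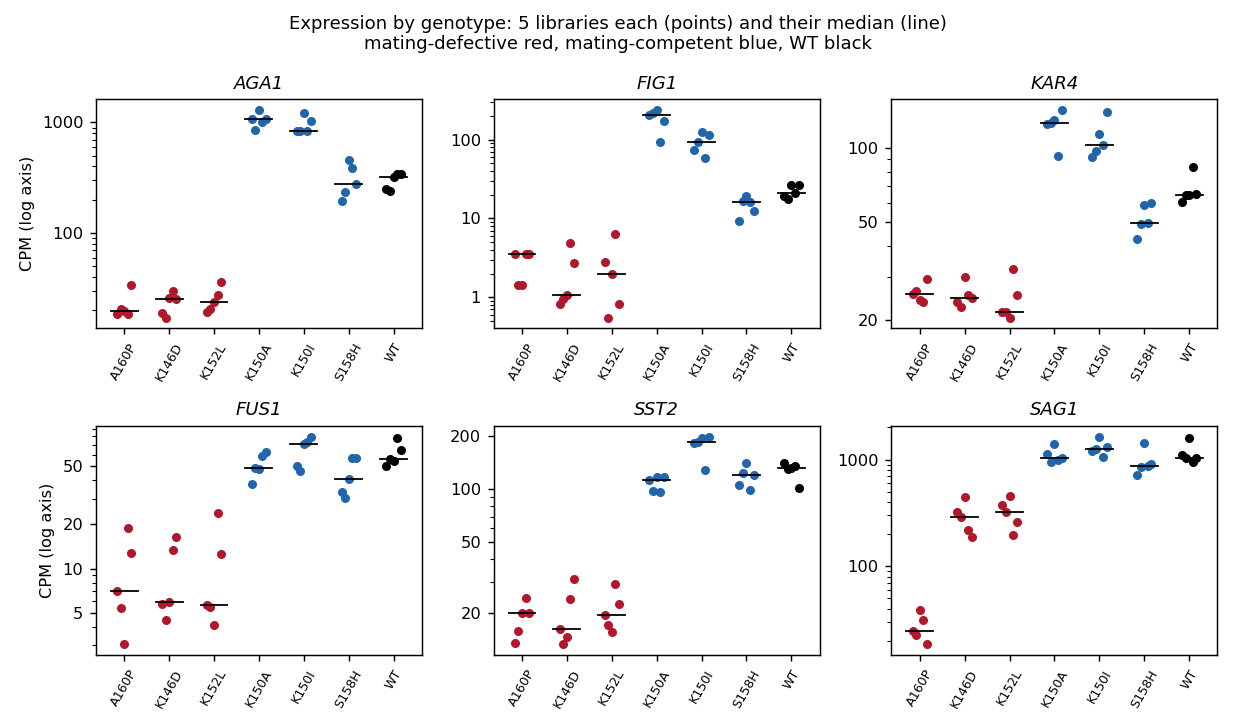
TMM-normalised CPM (log axis) of 6 genes beside a wild-type site in the 5 RNA-seq libraries of each genotype, with variants on the left and wild type on the right, and a line at the median. For AGA1 and FIG1 the libraries of A160P, K146D and K152L lie below, and those of K150A and K150I above, all 5 wild-type libraries.

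Binding at the site and expression of the gene beside it parted at several of these genes, in strains and conditions that differed. In K146D the FIG1 site held 99 and 95 UMIs, against 55 and 38 in WT, and FIG1 fell (log2 fold change −3.69 ± 0.44 (SE), edgeR adjusted p = 1.23e-06). In K150I the same site had 0 UMIs, and FIG1 rose (2.06 ± 0.31). The AGA1 site held 83 and 52 UMIs in K146D, against 15 and 19 in WT, and AGA1 fell. At FUS1, K146D had 39 and 32 UMIs, against 23 and 9 in WT, and FUS1 fell by 2.90 on the log2 scale. Of the 2 SAG1 sites, the stronger was retained by all 6 variants.

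SAG1 gave the largest fall, in A160P, with a median of 25.0 CPM (18.5 to 39.3), and fell less in K146D (293) and K152L (320), against 1039 (949 to 1585) in WT. MF(ALPHA)1, the main α-factor gene, fell in A160P (442 CPM, against 960 in WT), as did AFB1, the gene of the a-factor barrier protein of MATα cells (261, against 443 in WT). These are genes of the MATα cell type, and all 4 MATα markers that were measured (STE3, SAG1, MF(ALPHA)1 and MF(ALPHA)2) fell in A160P, where their summed level was 482 to 840 CPM, against 2771 to 4136 in WT. In K146D and K152L 1 of the 4, SAG1, fell. Of 4 MATa markers measured, AGA2 fell in A160P, and their summed level was 22.5 to 90.1 CPM in A160P, against 29.9 to 106 in WT. The MATa gene STE6 was highest in replicates 4 and 5 in all 7 genotypes, and STE3, AFR1 and STE12 were lowest in them. The shift between replicates was thus not limited to MATa genes, and its cause was not tested. The part of the MATα genes in the A160P results was not tested.

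STE12 and PRY3 were the listed genes that rose in mating-defective variants. STE12 rose in A160P (log2 fold change 1.85 ± 0.25), K146D (1.24), K152L (1.53) and K150A (1.21), with medians of 660, 396, 506 and 362 CPM, against 153 (130 to 185) in WT. In the fit with the replicate block STE12 also rose in K150I (1.06, edgeR adjusted p = 3.15e-07) and S158H (0.45, adjusted p = 0.04), and the K150I libraries, at 200 to 418 CPM, all lay above those of WT. In these strains STE12 was supplied on the plasmid. PRY3 rose in A160P and K152L, with log2 fold changes of 1.00 and 1.07.

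The 13 genes of no list that changed in the fit with genotype alone were mostly small falls. RGC1, a regulator of the glycerol channel, had 115 CPM in A160P, 122 in K146D, 113 in K152L and 136 in K150A, against 212 in WT, and NIS1, which encodes a protein of the bud neck, had 31.7, 34.7, 35.5 and 39.4 CPM, against 57.6 in WT. CHS3, the gene of a chitin synthase, and PPG1, a phosphatase gene, fell in the same 4 variants, by 0.42 to 0.54 on the log2 scale except for PPG1 in K152L (−0.35). None of the 6 variants had retained the sites of CHS3 and PPG1. GIC2, a target of the GTPase Cdc42, ECL1, SCW10 and YGL194C-A fell in the 3 mating-defective variants, by 0.46 to 0.91. TIR1, a cell wall gene, was the only 1 of the 13 to rise, in K152L (2.81) and K150A (2.73), and its libraries were variable, with 6.87 to 49.2 CPM in K152L and 6.55 to 43.1 in K150A, against 1.51 to 6.59 in WT.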

How the data were processed

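For calling cards, the authors counted insertions by UMI and the deposited values, for 2188 peaks (R64), are natural logs of 1 plus the UMIs per 1000000 in peaks. Submitters' notes name bcl2fastq, Trim Galore 0.4.1, STAR and MACS2 without roles. All 30632 values gave whole UMIs within 0.001 after the log was undone and 1 UMI set by the smallest value of each column, which assumes at least 1 peak with 1 UMI. For RNA-seq, the authors deposited raw UMI counts per gene (URA3 was left out here, as in the study). Reads not in peaks, the transposase-only libraries and peak sequences were not analysed here.

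Genes came from the RefSeq R64 table, with strand from systematic names, and of the 278 genes beside a site 261 were tested. Binding was tested with limma 3.58.1 (trend, library sizes without the 2 largest peaks, Benjamini-Hochberg) and expression with edgeR 4.0.16 (TMM, filterByExpr, quasi-likelihood test, all 35 libraries in 1 fit, Benjamini-Hochberg) in R 4.3.3. Named sites were the 10 strongest in WT, those beside listed genes, those retained by 5 or more variants, the highest and lowest called differences (5 each, or 2 each for 1 variant against the rest), and the 5 strongest with 0 UMIs in at least 11 variant libraries. Of these sites 1 is not reported here. Named genes were those called in at least 1 variant, and CHS7 was named after its values were seen. Scripts were tested on simulated data. Members, lists and tests were chosen with earlier results of these data known.

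Same-numbered RNA-seq libraries of a variant and WT deviated together in all 30 pairs (r from 0.190 to 0.760, and from −0.771 to 0.801 with a median of −0.45 over 120 pairs of different numbers), so the number, which the labels give, was taken to pair them in the fit with the replicate block. Unless that block is named, counts and fold changes come from the fit with genotype alone, which ignores the pairing. Replicates 1 and 2 are 1 record in the labels and 3 to 5 another, with barcode files marked as different experiments. Nothing in the sources used here says whether replicates were separate cultures, so p-values measure the spread between these libraries.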

Additional observations from a re-analysis of the deposited data

Results flagged for a closer look

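In 16 of 182 groups of 5 RNA-seq libraries (26 named genes in 7 genotypes), 1 library stood far from the other 4 by Dixon's test, which chance alone gives in about 1 of 20 groups. High single libraries were those of AGA1 in A160P (34.2 CPM), GIC2 in A160P (127 CPM), CHS3 in K146D (97.2 CPM), KAR5 in K146D (21.0 CPM), ECL1 in K152L (78.7 CPM), KSS1 in K150A (28.9 CPM), CHS3, RGC1, SAG1 and TEC1 in S158H (129, 231, 1441 and 125 CPM), and KAR4 and SAG1 in WT (83.3 and 1585 CPM). Low single libraries were those of CHS3 in A160P (67.7 CPM), SST2 in K150I (128 CPM), and CHS3 and SST2 in WT (94.8 and 102 CPM).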

How the results depend on the processing

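The number of WT sites was 379 at a minimum of 1 UMI, 161 at 10 UMIs and 248 after thinning, and 282 to 559 with 1 WT replicate. With a minimum of 1 UMI in the variant, A160P retained 39 sites, K146D 105 and S158H 70, and with a minimum of 10 A160P retained 2, K150A 34, K150I 30 and S158H 19. Leaving out 1 replicate of the variant gave 15 to 34 sites in A160P, 58 to 83 in K146D, 31 to 41 in K152L, 65 to 67 in K150A, 50 to 51 in K150I and 51 to 55 in S158H. edgeR on recovered UMIs called 27 sites between the mating classes, and 16, 33, 42 and 42 for A160P, K152L, K150A and S158H against the other 5, and its share at WT sites (24.3%, 14.4%, 29.7%, 37.8% and 37.8%) was above its share over all peaks (16.3%, 17.2%, 17.1%, 24.1% and 30.0%) except in A160P. Leaving out single libraries gave 67 to 80 sites between the classes, and 51 to 70 for A160P, 37 to 64 for K146D, 52 to 76 for K152L, 45 to 73 for K150A, 49 to 81 for K150I and 44 to 74 for S158H. The cause of these moves was not tested. Same-numbered calling-card libraries shared only a number (r from −0.146 to 0.0882 over 21 pairs of genotypes), and with the replicate number as a block 74 sites were called between the classes, against 73 without it.

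For expression, the fit with the replicate block called 40 genes in A160P, 35 in K146D, 38 in K152L, 31 in K150A, 6 in K150I and 4 in S158H. Each variant fitted with WT alone gave 15 genes in A160P and 7 in K150A, and DESeq2 gave 5 in K150I. Leaving out a replicate number gave 18 to 33 genes in A160P, 15 to 19 in K146D, 13 to 29 in K152L, 5 to 17 in K150A, 2 to 7 in K150I and 0 to 1 in S158H. No call at a named site or gene, and no difference in UMI share between the mating classes, changed direction under any alternative run. The median log2 difference between the classes did change sign. Without the minimum on mean UMIs it was 0.07 over 223 WT sites and 0.12 over all 1951 peaks. Over all settings, named sites kept their call 678 times and lost it 2 times, and named genes kept it 786 times and lost it 126 times. Retention within 500 bp, the 29 listed sites alone and each RNA-seq record alone were added after seeing the data. Alternatives on sequence motifs were not run, because no genome was used here. With 5904 to 12778 UMIs a library, sites of a few UMIs could not be told from 0.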
